A study of Mus musculus with 2 samples.

Results

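The 32 genes described here make cholesterol, control its synthesis, move it and store it. They were taken by symbol from a list of pathway members drawn up with earlier results of these data known, and all 32 were found among the 24369 gene rows of the table. Of these, 19 encode enzymes on the route from acetyl-CoA to cholesterol and its isoprenoid branch, and 13 encode regulators, carriers, lysosomal proteins, an esterifying enzyme and nuclear receptors. The libraries came from sorted type II pneumocytes (alveolar type 2 cells) of wild-type (WT) C57BL6 mice, with 1 library from postnatal day 28 (P28) and 1 from postnatal day 7 (P7). The labels name no treatment, and neither the sort markers nor the number of animals behind a library are given in the sources used here. Expression was deposited as RPKM, a read count divided by gene length and by sequencing depth.

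Cholesterol is built from acetyl-CoA through mevalonate, farnesyl diphosphate, squalene and lanosterol. When sterols in the endoplasmic reticulum are low, the escort protein SCAP carries the SREBP transcription factors to the Golgi, where they are cut and released to activate genes of synthesis and uptake, and INSIG proteins hold SCAP back when sterols are plentiful. Liver X receptors (LXR) sense oxidised sterols and activate genes of sterol export and lipid synthesis. In type 2 cells cholesterol is a component of the surfactant that these cells store in lamellar bodies, organelles related to lysosomes.

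With 1 library per age no difference has a replicate check and no p-value can be given, so "higher" and "lower" compare these 2 libraries. The spacing of the lowest values put about 24500000 reads in the RPKM denominator at P28 and 17600000 at P7. Read numbers recovered in this way summed to about 6960000 at P28 and 4510000 at P7 over genes with a known length. Intervals are exact 95% intervals from these read numbers. They cover counting error only, since reads copied by PCR and not tagged by molecule are not independent. The libraries were sequenced as read pairs, and no source used here says whether mates were counted separately, which would make the intervals too narrow. All 12 type 2 cell markers examined exceeded 10 RPKM in both libraries, with sums of 29480 RPKM at P28 and 16876 RPKM at P7. Sftpc (surfactant protein C) made up most of both sums, with 24085 RPKM at P28 and 13343 RPKM at P7. Nkx2-1 was lower at P28, with 47.5 RPKM against 60.1 RPKM at P7. Lpcat1 was also lower at P28 (126 against 132 RPKM), Etv5 was even (85.3 RPKM at both ages), and the other type 2 cell markers were higher. Markers of other cells differed between the libraries. Summed levels were 19203 RPKM at P28 and 7465 RPKM at P7 for 12 airway markers. Most of that sum was Scgb1a1, with 18104 RPKM at P28 and 6764 RPKM at P7. Aldh1a7, Tppp3 and Sec14l3 were lower at P28, and the other airway markers were higher. In the same order, sums were 24.8 and 52.5 RPKM for 10 endothelial markers and 132 and 273 RPKM for 12 fibroblast markers. They were 14.4 and 11.2 RPKM for 6 lipofibroblast markers, and 7.41 and 11.1 RPKM for 14 macrophage and leukocyte markers. Xist had 0.245 RPKM at P28 and 52.7 RPKM at P7, while the Y-linked Ddx3y had 4.01 RPKM at P28 and was listed at 0 at P7, so age and the sex of the animals cannot be told apart. In bulk libraries such as these, fewer cells of a type and less RNA per cell cannot be told apart either.

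The promoter sequences of 27 of the 32 genes were matched by symbol to RefSeq (GRCm38.p6), and Fdps, Fdft1, Sqle, Stard4 and Npc1 were not. The window of each gene was the 250 bases before its most upstream start. Later starts, listed for Pmvk and Insig2 among others, were not searched. Some windows held annotated exon bases, all 250 of them for Idi1 and Tm7sf2. The windows were searched on both strands for 4 motifs. These were a sterol regulatory element (TCACNCCAC, bound by SREBP), the CCAAT box (bound by NF-Y, a partner of SREBP), the GC box (GGGCGG, bound by Sp1) and an E-box (CACGTG). The CCAAT box stood in 22 of 27 members (81.5%) and in 34.5% of 27018 mouse promoters searched in the same way. The GC box stood in 18 (66.7%) against 33.0% of all, the sterol element in 1 (3.70%) against 1.03%, and the E-box in 3 (11.1%) against 6.04%. The members' windows had a median GC content of 61.6%, against 52.0% for all promoters, and a match is a description of the letters, not of binding. The sequences of 5 members are shown. Hmgcs1 holds the 1 sterol element found, and Insig1 and Insig2 are the paired brakes on SREBP. Pmvk and Lipa are the members farthest apart between the ages in each direction. No difference between the ages was tested against a motif. Each sequence runs 5′ to 3′ towards the start, with every match in capitals, and no 2 matches overlap in them.
Hmgcs1 (chr13:119690101-119690350, plus strand): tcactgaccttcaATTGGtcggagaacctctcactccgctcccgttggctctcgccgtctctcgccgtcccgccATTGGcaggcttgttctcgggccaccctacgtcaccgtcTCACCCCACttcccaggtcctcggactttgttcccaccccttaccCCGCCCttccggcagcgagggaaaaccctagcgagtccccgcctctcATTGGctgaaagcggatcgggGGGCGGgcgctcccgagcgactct
Insig1 (chr5:28071162-28071362, plus strand): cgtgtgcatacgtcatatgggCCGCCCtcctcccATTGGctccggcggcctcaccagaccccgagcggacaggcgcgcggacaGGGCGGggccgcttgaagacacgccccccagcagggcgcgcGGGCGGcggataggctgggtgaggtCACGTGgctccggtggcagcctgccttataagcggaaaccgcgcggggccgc
Insig2 (chr1:121332590-121332839, minus strand): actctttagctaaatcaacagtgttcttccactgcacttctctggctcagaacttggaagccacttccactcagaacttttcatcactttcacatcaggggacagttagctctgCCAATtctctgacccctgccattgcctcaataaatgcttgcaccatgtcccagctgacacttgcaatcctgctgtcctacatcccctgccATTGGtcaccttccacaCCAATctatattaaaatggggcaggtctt
Pmvk (chr3:89454291-89454540, plus strand): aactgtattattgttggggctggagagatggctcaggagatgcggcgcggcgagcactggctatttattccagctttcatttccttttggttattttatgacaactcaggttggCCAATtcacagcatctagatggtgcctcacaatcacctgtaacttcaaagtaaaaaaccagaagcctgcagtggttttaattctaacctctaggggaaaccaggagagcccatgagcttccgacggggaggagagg
Lipa (chr19:34527475-34527724, minus strand): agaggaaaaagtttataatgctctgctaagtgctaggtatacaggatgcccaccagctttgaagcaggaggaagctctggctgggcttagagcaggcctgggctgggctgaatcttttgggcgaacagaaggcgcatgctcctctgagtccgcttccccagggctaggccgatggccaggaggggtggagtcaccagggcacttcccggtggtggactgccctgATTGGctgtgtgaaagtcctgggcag
The Insig1 sequence stops after 201 bases, where an annotated exon of the gene begins. In Hmgcs1 the sterol element lay at positions -137 to -129 from the start, with 3 CCAAT boxes and 2 GC boxes around it. Insig1 held 1 CCAAT box, 3 GC boxes and 1 E-box, and Insig2 held 3 CCAAT boxes. The Pmvk and Lipa windows each held 1 CCAAT box and no other match.

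**Figure D1:**
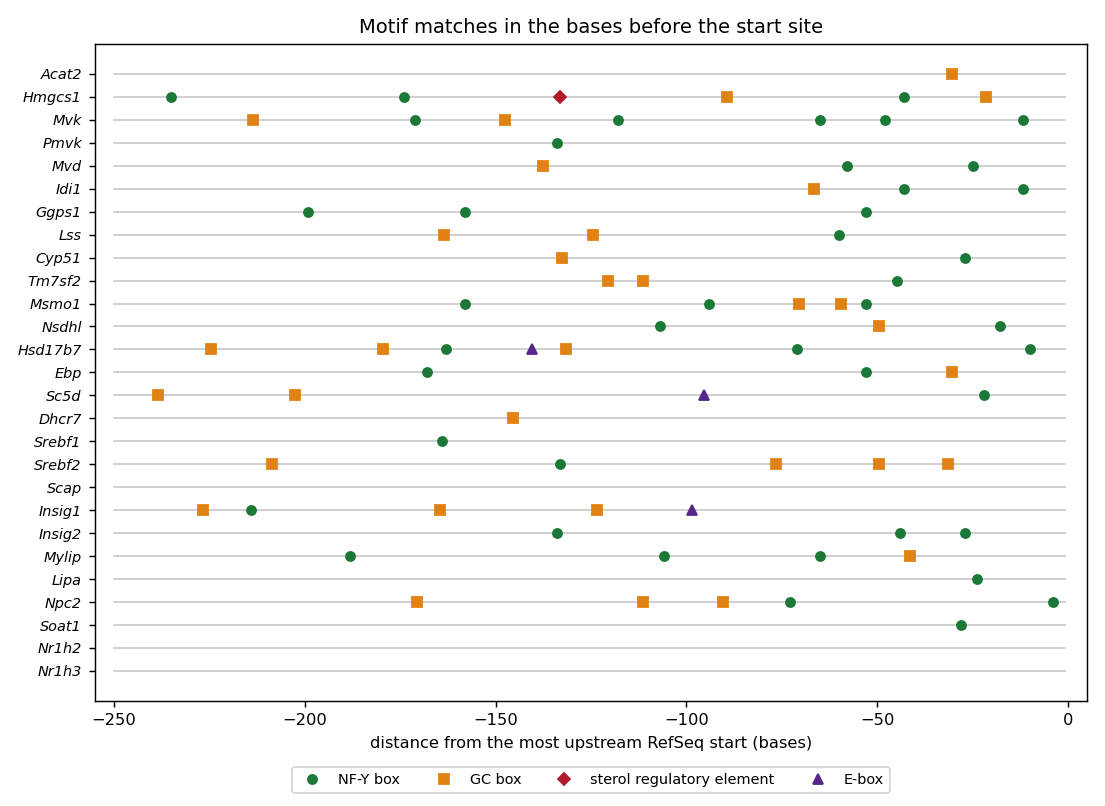
Positions of the 4 motifs in the 250 bases before the most upstream RefSeq start of the 27 matched genes, in pathway order; the horizontal axis is the distance from the start in bases, and the NF-Y box is the CCAAT motif. Green points stand in 22 of the 27 rows, and the single sterol regulatory element lies in Hmgcs1.

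The comparison of the 2 ages asks how the machinery of cholesterol supply differs between the first postnatal week and 28 days. Among the members, 2 enzyme genes were at least 2-fold higher at P28, Pmvk and Idi1, and 1 gene, the lysosomal lipase gene Lipa, was at least 2-fold lower. A call rests on log2(RPKM + 1) at P28 minus the same at P7, in genes that reached 1 RPKM at either age. Of the 32 members 30 met this filter, and Mylip and Nr1h3 did not. Lipa met it only through P7. The 2 higher members were 6.67% of the 30, where 1.18% of all 9653 genes tested were called higher, and the 1 lower member was 3.33%, where 1.96% of all genes were called lower. The members had a median log2 ratio of 0.22 against -0.08 for all genes tested, and 22 of the 30 had a log2 ratio above 0, as did 39.3% of all genes. At 1.5-fold as deposited, 8 members were higher (Acat2, Pmvk, Idi1, Cyp51, Msmo1, Nsdhl, Hsd17b7 and Dhcr7), where 4.5% of all genes were called, and Lipa alone was lower, where 7.46% were called.

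The scaling of the libraries decides the sign of small differences. The 10 most abundant genes held 44.0% of the RPKM total at P28 and 27.9% at P7. Setting both libraries to the same total shifted all genes, with a change of -0.29 in their median log2 ratio. On that scale 11 members kept a log2 ratio above 0, where 11.9% of all genes lay above 0, and the members' median was -0.12. These 11 genes were above 0 under every scaling tried, 7 members were below 0 under every one, and 12 changed sign. The counting interval of the plain RPKM ratio lay above 1 in 17 of the 30 members (56.7%, against 18% of all genes) and below 1 in 4 (13.3%, against 33.2%). With equal totals these counts were 9 above and 12 below 1, where 5.18% of all genes lay above and 67.7% below.

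**Figure D2:**
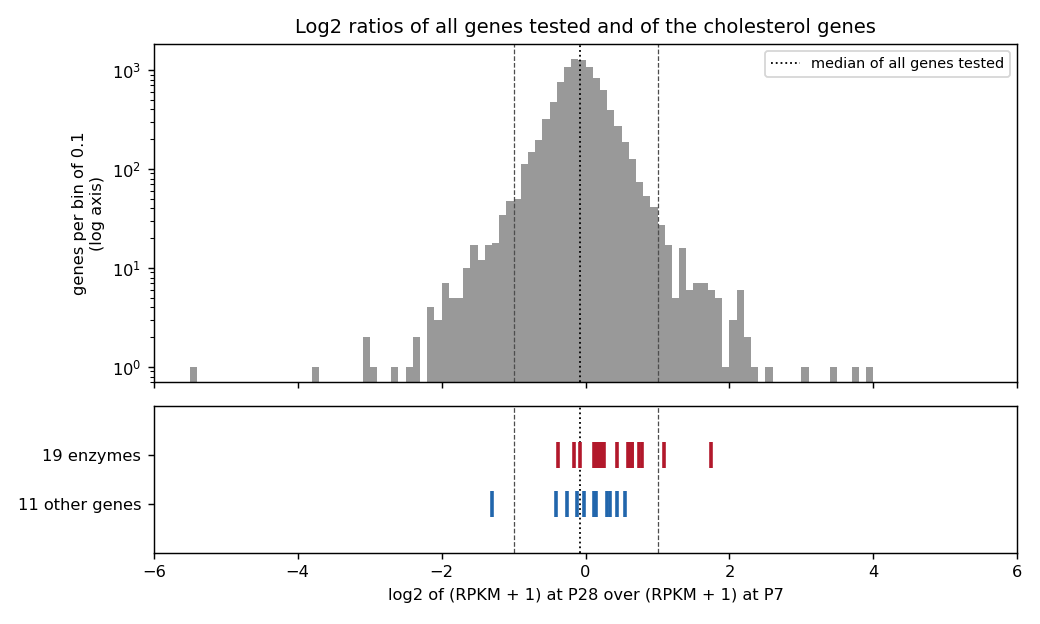
Upper panel, number of genes per bin of the log2 difference in RPKM + 1, P28 minus P7, for the 9653 genes tested (log vertical axis); lower panel, 1 tick for each of the 30 members tested, enzymes in red and the other genes in blue. Dashed lines mark 2-fold and the dotted line the median of all genes (-0.08); the members' median is 0.22, and 3 ticks lie outside the dashed lines.

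The 8 genes of the mevalonate and isoprenoid steps held both of the higher calls. As deposited 7 of the 8 had a log2 ratio above 0, and with equal totals 3 did. Pmvk, phosphomevalonate kinase (chromosome 3, 89454541 to 89469013, plus strand, protein coding, GRCm38), had 14.7 RPKM at P28, against 3.69 RPKM at P7. Its ratio was 3.98 (interval 3.09 to 5.19), with about 400 and 72 reads behind the values, and only 24 of the 9653 genes tested had a larger log2 ratio. Idi1, isopentenyl-diphosphate isomerase (chromosome 13, 8885501 to 8892451, plus strand, protein coding), had 17.8 RPKM at P28, against 7.84 RPKM at P7, a ratio of 2.26 (2.03 to 2.53). With equal totals Pmvk kept its 2-fold call (log2 ratio 1.37) and Idi1 did not (0.71), nor did Idi1 with a pseudocount of 5 RPKM (0.83). Acat2, the cytosolic thiolase that opens the route, had 7.58 RPKM at P28, against 4.46 RPKM at P7, a ratio of 1.70 (1.42 to 2.04). These 3 genes lay above 0 under every scaling.

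The enzymes next to them in the route were nearer to even. Hmgcs1, the cytosolic HMG-CoA synthase, had 13.5 RPKM at P28, against 11.6 RPKM at P7, a ratio of 1.17 (1.06 to 1.29). Ggps1, which makes geranylgeranyl diphosphate for protein prenylation, had 6.45 and 5.52 RPKM at P28 and P7, a ratio of 1.17 (1.03 to 1.33). Both ratios turn below 1 with equal totals. Mvd, mevalonate diphosphate decarboxylase, had 2.38 RPKM at P28, against 1.83 RPKM at P7, and Fdps, farnesyl diphosphate synthase, had 7.63 RPKM at P28, against 6.37 RPKM at P7. The intervals of both held 1, at 0.932 to 1.82 for Mvd and 0.969 to 1.47 for Fdps. Mvk, the mevalonate kinase that acts just before Pmvk, had the one ratio below 1 of this group as deposited, with 1.42 RPKM at P28, against 2.16 RPKM at P7, a ratio of 0.659 (0.451 to 0.959). Its interval reached 1.04 with the median ratio of all genes set to 0 and 1.03 by the upper quartile, so it then held 1. These successive kinases stood apart from each other: Pmvk was at 10.3 times the RPKM of Mvk at P28 and at 1.71 times at P7. No scaling of the libraries can alter this 6.03-fold difference (3.80 to 9.58). The pair is 1 of 11 chosen after the values had been seen, and the interval makes no allowance for that choice.

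**Figure D3:**
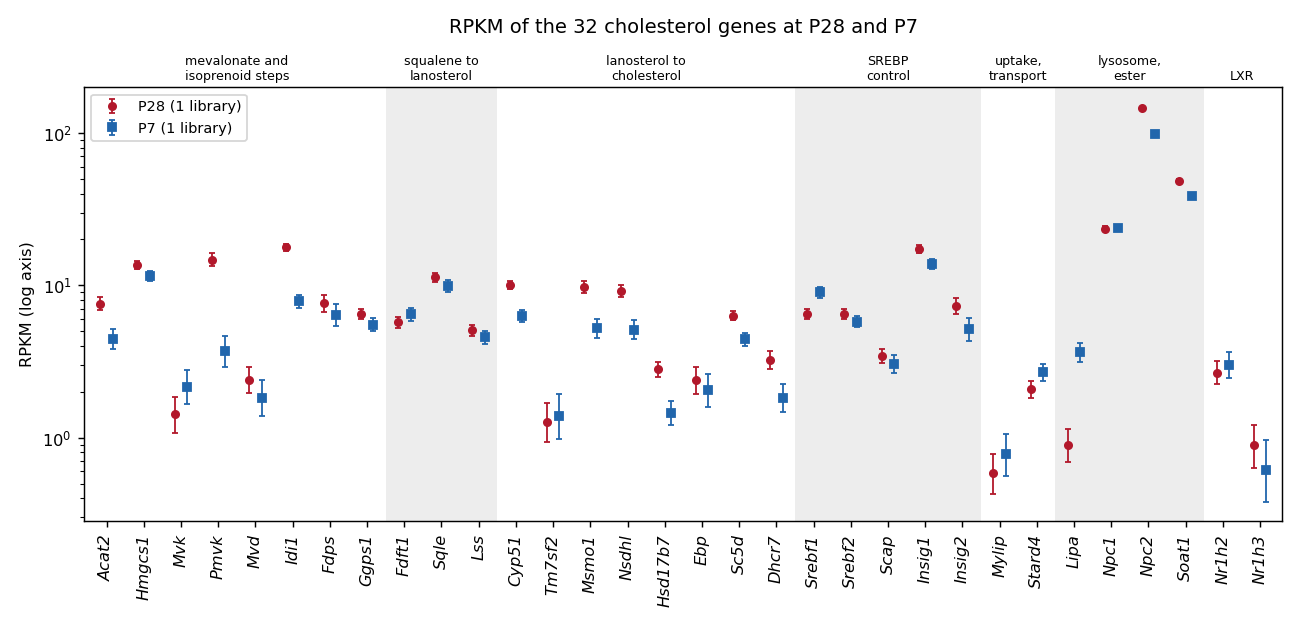
RPKM of each of the 32 genes (log axis) in pathway order, with P28 as red circles and P7 as blue squares, 1 library each; bars are exact 95% counting intervals. Npc2 leads at both ages (145 RPKM at P28 and 98.9 RPKM at P7), and the symbols stand farthest apart for Pmvk and Lipa.

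The 3 genes that carry farnesyl diphosphate through squalene to lanosterol differed little. Fdft1, squalene synthase, had 5.70 RPKM at P28, against 6.465 RPKM at P7, a ratio of 0.882 with an interval of 0.775 to 1.01. Sqle, squalene epoxidase and a known control point of the route, had 11.3 RPKM at P28, against 9.96 RPKM at P7, a ratio of 1.13 (1.01 to 1.27). Lss, lanosterol synthase, had 5.06 RPKM at P28, against 4.57 RPKM at P7, with an interval of 0.972 to 1.27. With equal totals all 3 had log2 ratios below 0, from -0.48 to -0.19.

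The 8 genes that turn lanosterol into cholesterol were mostly higher at P28, and none reached 2-fold. Their median log2 ratio was 0.60 as deposited and 0.27 with equal totals, and 6 of the 8 had a log2 ratio above 0 on every scale, where 11.9% of all genes did so with equal totals. Cyp51, lanosterol demethylase, had 10.1 RPKM at P28, against 6.31 RPKM at P7, a ratio of 1.60 (1.42 to 1.79). Msmo1 and Nsdhl act one after the other in removing the methyl groups at carbon 4 of the sterol ring. Msmo1 had 9.76 RPKM at P28, against 5.23 RPKM at P7, a ratio of 1.87 (1.57 to 2.22). Nsdhl had 9.20 RPKM at P28, against 5.12 RPKM at P7, a ratio of 1.80 (1.52 to 2.14). Hsd17b7, the ketosteroid reductase of the same demethylation complex, had 2.82 RPKM at P28, against 1.45 RPKM at P7, and at 1.94 (1.56 to 2.41) it had the largest plain ratio of the group.

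Later steps were similar. Sc5d, the sterol desaturase, had 6.33 RPKM at P28, against 4.42 RPKM at P7, a ratio of 1.43 (1.26 to 1.62). Dhcr7, which closes the branch through 7-dehydrocholesterol, had 3.25 RPKM at P28, against 1.81 RPKM at P7, a ratio of 1.79 (1.39 to 2.30). The group's remaining genes did not stand apart from even: Ebp, the sterol isomerase, had 2.38 RPKM at P28, against 2.05 RPKM at P7, with an interval of 0.839 to 1.61. Tm7sf2, a sterol reductase, had 1.26 RPKM at P28, against 1.38 RPKM at P7 (0.579 to 1.46). Nsdhl and Ebp lie on chromosome X, and the libraries differ in their Xist and Ddx3y levels as given above.

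**Figure D4:**
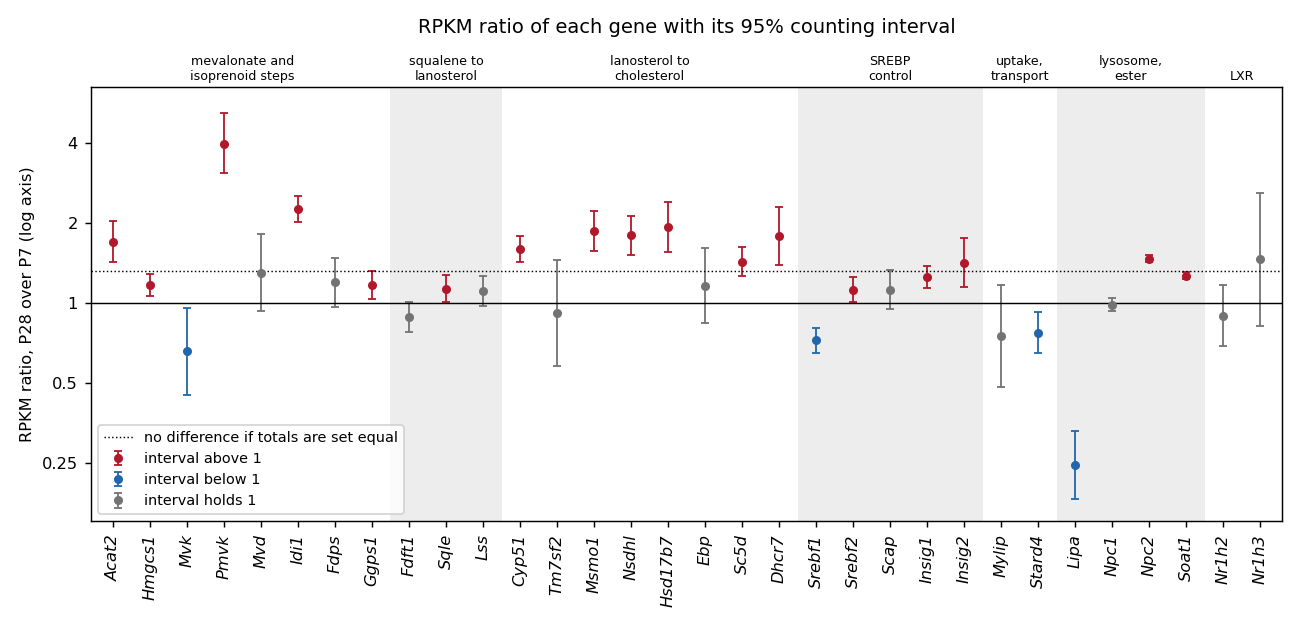
Plain RPKM ratio of P28 over P7 for each of the 32 genes (log axis) with its exact 95% counting interval, coloured by whether the interval lies above, below or across 1; the dotted line marks where an even ratio would lie if both libraries had the same total. Of the 30 genes tested, 17 intervals lie above 1 and 4 below; Mylip and Nr1h3, under the filter, are drawn but not counted.

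Summed over the 19 enzymes, the level was 139 RPKM at P28, against 92.2 RPKM at P7, or 0.59 on the log2 scale as deposited and 0.19 once totals were made equal. By stage the summed ratios were 1.64 for the mevalonate and isoprenoid genes, 1.05 for squalene to lanosterol and 1.62 for lanosterol to cholesterol, and 1.25, 0.799 and 1.23 with equal totals. The composition of the route differed as well. Idi1 led the enzymes at P28 with 12.8% of their summed RPKM, against 8.51% at P7, and Pmvk stood second at P28 with 10.6%, against 4.01% and position 13 at P7. Hmgcs1 held 9.76% at P28, against 12.5% and the first position at P7, and Fdft1 held 4.12% at P28, against 7.01% at P7. Within the route Idi1 was 1.94-fold higher relative to Hmgcs1 (1.67 to 2.25), and Msmo1 was 2.12-fold higher relative to Fdft1 (1.70 to 2.63). These relative values do not depend on the scaling of the libraries. They come from 11 pairs of members chosen after the values had been seen.

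**Figure D5:**
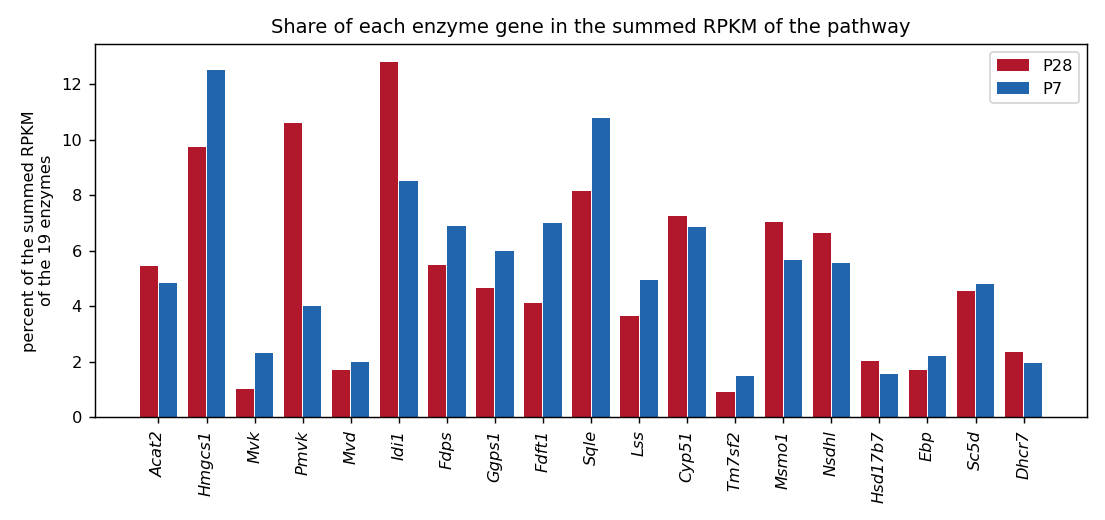
Percent of the summed RPKM of the 19 enzyme genes held by each, with P28 as the left bar and P7 as the right bar of each pair, in pathway order. Idi1 (12.8%) and Pmvk (10.6%) hold the largest shares at P28, and Hmgcs1 (12.5%) and Sqle (10.8%) at P7.

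Several of these genes share sequence with others, and no source used here says whether counting used strand or how shared reads were treated. Of the 50-base words in the longest RefSeq transcript of Fdps, 86.4% also occur in transcripts of other genes, 77.3% in the overlapping model Gm43738, so its level is uncertain. For Acat2 45.9% were shared with its neighbour Acat3, which had 0.0943 RPKM at P28 and 0.359 RPKM at P7. Idi1 shared 30.5% of its words with other genes, and Fdft1 30.7%, of which the Ctsb gene on the opposite strand (20.5 RPKM at P28, 19.1 RPKM at P7) made up most at 19.9%. Pmvk, Mvk, Msmo1, Nsdhl, Hsd17b7, Dhcr7, Srebf2 and Lipa shared no such word with another gene.

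None of the 5 genes that control the route was 2-fold apart, and the 2 SREBP genes differed from each other. Srebf1, whose products drive mainly fatty acid synthesis, had 6.49 RPKM at P28, against 8.98 RPKM at P7, a ratio of 0.723 (0.649 to 0.805) that was below 1 under every scaling. Srebf2, whose product drives mainly cholesterol genes, had 6.49 RPKM at P28, against 5.78 RPKM at P7, a ratio of 1.12 (1.00 to 1.26) that fell below 1 with equal totals. The pair stood at equal levels at P28 (Srebf1 over Srebf2 1.00) and apart at P7 (1.55), a relative difference of 0.644 (0.550 to 0.752) on any scaling. Scap, the sterol-sensing escort, had 3.42 RPKM at P28, against 3.06 RPKM at P7, with an interval of 0.945 to 1.33.

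Both INSIG genes had intervals above 1 as deposited. Insig1, itself a well-known SREBP target, had 17.3 RPKM at P28, against 13.9 RPKM at P7, a ratio of 1.25 (1.13 to 1.38). Insig2, the form less dependent on SREBP, had 7.34 RPKM at P28, against 5.17 RPKM at P7, a ratio of 1.42 (1.15 to 1.76). With equal totals Insig1 had a log2 ratio of -0.07 and Insig2 one of 0.09. Relative to Insig2, Insig1 was at 0.880 (0.694 to 1.11), an interval that holds 1.

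Mylip and Stard4, the members for receptor turnover and cytosolic sterol carriage, had less than 3 RPKM in both libraries. Mylip, an LXR-induced ubiquitin ligase that lowers lipoprotein receptors, had 0.586 RPKM at P28, against 0.780 RPKM at P7, about 44 and 42 reads, with an interval of 0.480 to 1.17. Stard4, a cytosolic sterol carrier, had 2.07 RPKM at P28, against 2.68 RPKM at P7, a ratio of 0.772 (0.646 to 0.925) that stayed below 1 under every scaling. Nr1h2 (LXR beta) had 2.67 RPKM at P28, against 3.00 RPKM at P7 (0.686 to 1.17). Nr1h3 (LXR alpha) had 0.899 RPKM at P28, against 0.614 RPKM at P7, from about 40 and 20 reads, and a difference was not detectable at this depth (0.818 to 2.59). Nr1h2 was the higher of the 2 receptors at both ages.

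The lysosomal and esterifying genes were the most abundant members, and Lipa was their exception. Npc2, the soluble lysosomal carrier that hands cholesterol to NPC1, had 145 RPKM at P28, against 98.9 RPKM at P7, a ratio of 1.47 (1.42 to 1.51) that was above 1 under every scaling. Npc1, its membrane partner, had 23.5 RPKM at P28, against 23.9 RPKM at P7, a ratio of 0.984 (0.931 to 1.04). Npc2 was therefore 6.17 times Npc1 at P28 and 4.14 times at P7, a relative difference of 1.49 (1.40 to 1.59). Soat1, which esterifies cholesterol for storage, had 48.7 RPKM at P28, against 38.4 RPKM at P7, a ratio of 1.27 (1.23 to 1.31) that turned below 1 with equal totals (log2 ratio -0.05). Npc2, Soat1 and Npc1 were the 3 most abundant members at both ages, in that order and with intervals apart from each other.

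Lipa, the acid lipase that frees cholesterol from esters in the lysosome (chromosome 19, 34492318 to 34527474, minus strand, protein coding), had 0.890 RPKM at P28, against 3.63 RPKM at P7. It was 4.08-fold lower at P28 (3.05 to 5.47), from about 65 and 189 reads, and was called under every scaling, though not with a pseudocount of 5 RPKM (log2 ratio -0.55). Relative to Npc1 it was at 0.249 (0.185 to 0.336). Macrophages are rich in this lipase, and 4 of the 14 macrophage and leukocyte markers reached 1 RPKM in at least 1 library. The summed level of all 14 was 7.41 RPKM at P28 and 11.1 RPKM at P7, and the 4 differed in direction. Srgn had 1.34 RPKM at P28, against 4.36 RPKM at P7, and Csf1r had 1.49 RPKM at P28, against 2.23 RPKM at P7. Cd68, a lysosomal protein of macrophages, had 1.08 RPKM at P28, against 0.455 RPKM at P7, and Cd79b had 3.02 RPKM at P28, against 2.84 RPKM at P7. The defining macrophage genes Marco, C1qa, C1qb, C1qc and Adgre1 were listed at 0 at both ages. Of 9 endothelial markers tested 6 were at least 2-fold lower at P28 and none higher. Among all genes tested 1.96% were called lower and 1.18% higher. Emcn, Cldn5 and Aplnr, of those 6, met the filter only through P7. Of 10 fibroblast markers tested 5 were lower and 1 higher. Postn, Lox and Acta2, of those 5, met the filter only through P7. Most of the fibroblast sum was Sparc, with 117 RPKM at P28 and 240.3 RPKM at P7. Inmt had 2.31 RPKM at P28 and was listed at 0 at P7, and Dcn had 1.35 RPKM at P28, against 0.490 RPKM at P7. Of 12 airway markers tested 4 were at least 2-fold higher (Scgb1a1, Scgb3a1, Cyp2f2 and Muc5b) and none lower. Of 12 type 2 cell markers 1 was higher, Sftpa1, and none lower. The part of any of these cells in the differences of Lipa, Pmvk and Idi1 was not tested.

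The order of the members was similar at both ages. Across the 32 genes the log2(RPKM + 1) levels had a Pearson r of 0.931 and the RPKM a Spearman rho of 0.871, against 0.946 and 0.916 across all 9653 genes tested, which share the same 2 libraries and are not replicates. Of the 31 pairs of neighbours in the order of RPKM, 6 had counting intervals apart at P28 and 4 at P7, so most neighbours in the order cannot be ranked. The largest move in rank was that of Pmvk, at position 6 of 32 at P28 and 20 at P7, and Lipa was at position 31 at P28 and 21 at P7.

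In 6 lists of related genes 1 gene was called as deposited, beside shares of 1.18% higher and 1.96% lower among all genes tested. Of 14 genes of SREBP-driven fatty acid synthesis 11 were tested, and 1 was at least 2-fold higher, the desaturase gene Scd1 with 936 RPKM at P28, against 255 RPKM at P7. Their median log2 ratio was 0.26 as deposited and 0.02 with equal totals. As deposited none was called among 20 genes of SREBP processing and sterol sensing (median 0.06), 13 tested of isoprenoid use (-0.11), 21 tested of sterol traffic (-0.02), 7 tested of LXR partners and targets (-0.20, with Srebf1 among them) or 7 encoding NF-Y, Sp1 and related factors (-0.25). With equal totals these medians were -0.30, -0.38, -0.31, -0.51 and -0.58 in the same order, against -0.37 for all genes. Cav1 (log2 ratio -1.23) and Lrpap1 (-1.05), of sterol traffic, were then past 2-fold lower, as were 388 of all 9434 genes tested on that scale. Nfya, the NF-Y subunit that contacts the CCAAT box, had 3.81 RPKM at P28, against 6.33 RPKM at P7. Mbtps1, the protease that makes the first cut in SREBP, had 3.20 RPKM at P28, against 5.02 RPKM at P7. Its list went both ways. Pgrmc1 and Erlin2 were also lower at P28, while Erlin1 had 6.94 RPKM at P28, against 4.65 RPKM at P7.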

How the data were processed

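Per the labels' protocols, RNA of sorted cells was reverse transcribed, made into libraries with the Nextera XT kit and sequenced as read pairs. TopHat, TopHat2 2.0.9 and GRCm38 (mm10) stand in the submitters' processing notes with no role or order. The deposited values are RPKM, 1 column per library, per the file headers. The program behind them, its annotation and filters were not given in the sources used here. No column was left unused.

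Members and gene lists were chosen with earlier results of these data known. The log2 ratio used a pseudocount of 1 RPKM, which shrinks the differences of low genes, while a fold given with an interval is a plain ratio. The fold of 2 was applied to genes that reached 1 RPKM at either age. Read numbers came from the RPKM of 1 read on 1 kilobase, 0.0408 at P28 and 0.0569 at P7. At these steps 61.6% of 1872 and 63.1% of 2030 low genes with 1 transcript length gave whole reads within 0.05. Lengths came from GENCODE M21 transcripts with a RefSeq entry, averaged where several existed (9 of the 32 members), so read numbers and intervals are approximate. They assume that the smallest step is 1 read. All 32 members are named. In the 6 other pathway lists, names came from the up to 4 genes a list with the largest absolute log2 ratio among those reaching 5 RPKM, and the 6 marker lists were summed. Calls and intervals were run on simulated data that held counting error only. The intervals there used the simulated read numbers, so their dependence on recovered read numbers was not tested. Python 3.11.15, numpy 2.4.6, pandas 2.3.3, scipy 1.17.1 and matplotlib 3.10.9 were used.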

Additional observations from a re-analysis of the deposited data

How the results depend on the processing

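No paired analysis was possible because each age has 1 library. The count of higher members was 2, and it became 1 with a pseudocount of 5 or equal totals and 8 with a fold of 1.5 (where 4.5% of all genes were called higher). The count of lower members was 1, and it became 0 with a pseudocount of 5 or a filter of 5 RPKM, which Lipa does not pass. At 1.5-fold with equal totals, Pmvk (log2 ratio 1.37) and Idi1 (0.71) stayed higher. The rest of the 8, from Cyp51 (0.24) to Msmo1 (0.44), did not. Mvk (-0.60) and Srebf1 (-0.75) were then past 1.5-fold lower, beside Lipa. The share of all genes past 1.5-fold with equal totals was not computed. The members' median log2 ratio of 0.22 turned to -0.12 with equal totals and otherwise ranged from 0.14 to 0.32. The log2 ratio of the enzymes' summed RPKM was 0.59, and it was 0.19 with equal totals, 0.70 with the median ratio of all genes set to 0 and 0.69 by the upper quartile. Intervals above 1 numbered 17 and those below 1 numbered 4, and there were 9 and 12 with equal totals, 22 and 3 with the median ratio of all genes set to 0, and 20 and 3 by the upper quartile, alternatives chosen after seeing the data. The shifts under rescaling follow from the factor put on P28. With the longest transcript length both counts were as reported. Equal totals moved 25 of the 30 single log2 ratios beyond their counting intervals, and no called member changed sign under any setting. Depth limits Mylip, Nr1h3 and Tm7sf2 most, each with under 50 reads in both libraries.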

Other observations

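Genes related by sequence to members were looked up by name. Acat1, the mitochondrial counterpart of the cytosolic thiolase gene Acat2, had 6.70 RPKM at P28, against 9.90 RPKM at P7, a ratio of 0.677 (0.602 to 0.762). Its interval lay below 1, while that of Acat2 (1.42 to 2.04) lay above 1 as deposited. The 2 ratios were not compared by a test. Soat2, the second cholesterol esterifying gene, had 0.0582 RPKM at P28 from about 3 reads and was listed at 0 at P7. Idi2, a paralog of Idi1, had 0.181 RPKM at P28 from about 10 reads and 0.0253 RPKM at P7 from about 1 read.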
